A study of Arabidopsis thaliana with 4 samples.

Results

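The LCR genes of Arabidopsis thaliana (low-molecular-weight cysteine-rich genes) were examined for binding of phytochrome A (phyA), the far-red light photoreceptor. They were taken as the protein-coding genes of the nuclear chromosomes whose symbol is LCR followed by a number only. This gave 80 of 27444 protein-coding genes. For each gene, the window was the gene body plus 1000 bp outside either end, and a peak counted when it overlapped the window by at least 1 bp. The family was chosen by its low share of peaks in these same lists, so its counts describe it and were not tested against other genes.

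The chromatin came from etiolated seedlings 4 days old that carried a phyA-GFP fusion, driven by the PHYA promoter, in the phyA201 mutant. All of them had received 3 h of far-red light. There were 3 ChIP samples made with an anti-GFP antibody, which the labels give as biologically distinct, and 1 input sample, which was not analysed here. All seedlings carried the transgene and all were irradiated, so no group without phyA-GFP or kept in darkness was analysed here.

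LCR genes encode small secreted peptides whose paired cysteines form disulphide bridges, and they belong to the defensin-like peptides of plants. Plant defensins are known for antifungal activity. Other defensin-like peptides act as signals between pollen and pistil, and many genes of this kind are transcribed mainly in flowers and seeds rather than in seedlings. In the light, phyA moves into the nucleus and associates with chromatin through transcription factors.

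There were 7084, 7534 and 6037 peaks in the lists of replicates 1, 2 and 3, with 11110782, 7702516 and 4951883 reads inside peaks. How deeply each library was sequenced is unknown, because the lists report only reads that fell in peaks. A peak's fold enrichment is the authors' own ratio of signal over local background, and it was never below 2.95 in any list.

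Most LCR genes had no phyA-GFP peak in their window. In 59 of the 80 genes (73.8%) none of the 3 lists held a peak. A further 8 genes had peaks in 1 replicate, 7 in 2 replicates and 6 in all 3. The share with a peak in at least 1 replicate was 26.2% of LCR genes (95% Wilson interval 17.9 to 36.8%), against 48.1% of all protein-coding genes. The share with a peak in all 3 replicates was 7.5% of LCR genes (interval 3.48 to 15.4%), against 18.8% of all protein-coding genes. These intervals are no test of the difference, because the family was chosen by its low share.

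The lower share was seen in every list. The family was chosen by its low share in these same lists, so this is no independent replication. Peaks lay in the windows of 14, 15 and 11 LCR genes in replicates 1, 2 and 3. These were 17.5, 18.8 and 13.8% of LCR genes (mean 16.7% ± 2.60, SD, n = 3), against 35.3, 35.7 and 28.1% of all protein-coding genes (mean 33.0% ± 4.29, SD, n = 3). The highest value for LCR genes was thus below the lowest value for all genes, which describes the chosen family and is not a test.

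Of the 21 LCR genes with a peak, 12 were the gene closest to a summit, the point of highest signal. At the other 9 every summit was nearer to another gene. By the same rule, 1783 of the 3193 protein-coding genes with a peak in the LCR length range (274 to 1558 bp) were closest to a summit. Among all protein-coding genes with a peak it was 8746 of 13206. Over the whole family, an LCR gene was the strictly nearest protein-coding gene to a summit in at least 1 replicate in 12 of 80 cases (15.0%), against 31.9% of all protein-coding genes. It was the nearest gene in all 3 replicates in 1 of 80 cases (1.25%), against 9.58%. The windows of LCR genes held 42 distinct peaks over the 3 lists, of which 19 (45.2%) had an LCR gene as the nearest gene. This share of peaks was not taken for other genes. The other 23 summits were nearer to 13 other protein-coding genes, and 8 of them lay inside such a gene. The plot of fold enrichment by LCR gene shows both kinds of summit.

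**Figure D1:**
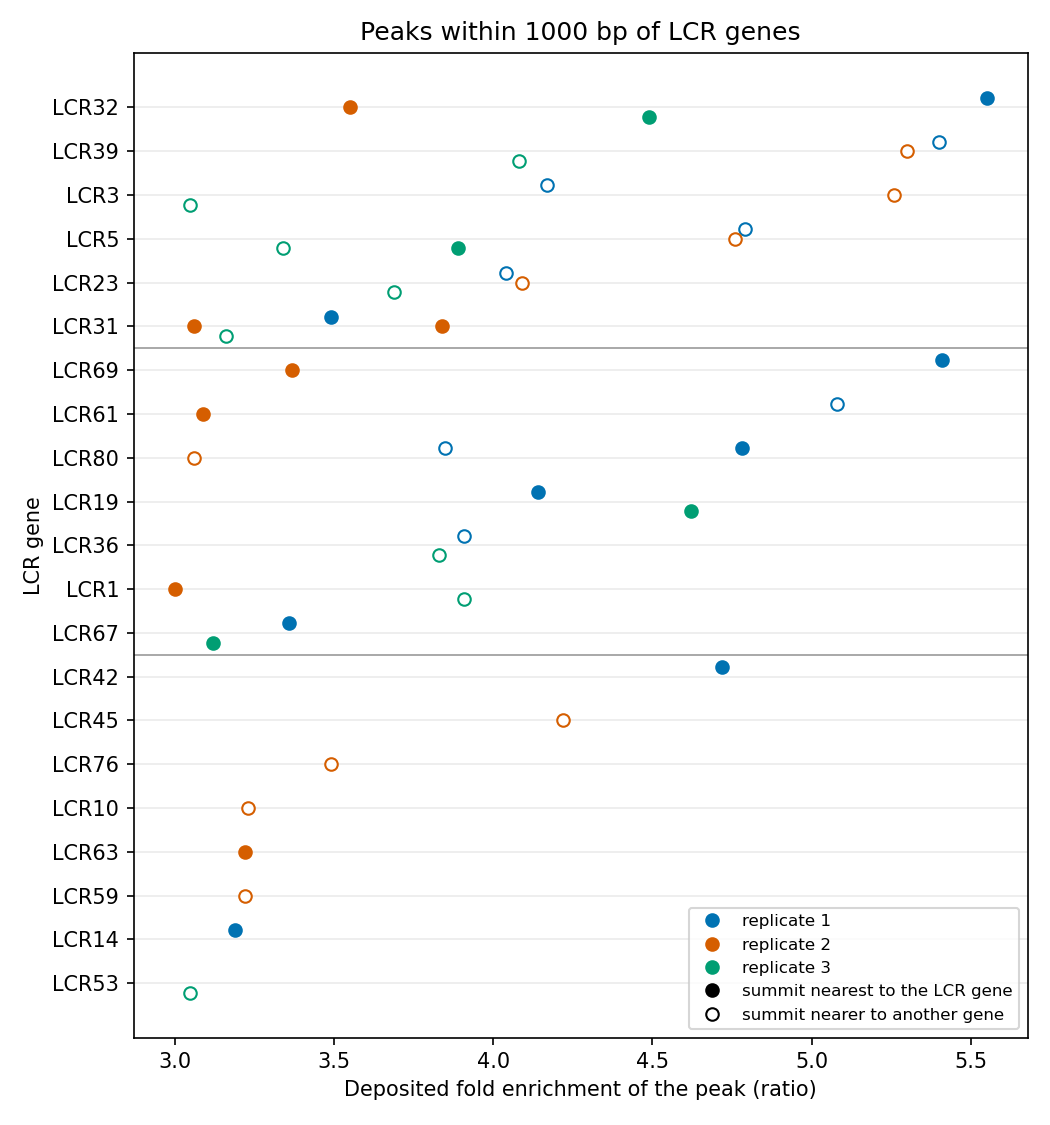
Fold enrichment (x axis, ratio as deposited) of each peak within 1000 bp of an LCR gene (y axis), coloured by replicate; filled points have the LCR gene as the nearest protein-coding gene and open points another gene. Lines separate genes with peaks in 3 replicates, 2 replicates and 1 replicate; the values lie between 3.00 and 5.55.

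LCR32 (AT2G28405) was the only LCR gene nearest to a summit in all 3 replicates. Its peaks on chromosome 2 (TAIR10) ran from 12151854 to 12152955 in replicate 1, from 12151919 to 12153429 in replicate 2 and from 12151885 to 12152967 in replicate 3. Fold enrichment was 5.55, 3.55 and 4.49 in replicates 1, 2 and 3, with a mean of 4.53 ± 1.00 (SD, n = 3). These values stood at the 84.5, 34.1 and 87.5 percentiles of their lists, so replicate 2 was low while the other replicates were in the upper part of theirs. The summits lay 770, 550 and 908 bp outside the lower-coordinate end of the gene and within 358 bp of each other. The gene table used here gives no strand, so promoter and downstream sides cannot be told apart for any gene named here.

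LCR31 (AT1G28335) shared its peaks with DYL1 (AT1G28330), a gene related to dormancy-associated genes. The highest peaks had fold enrichments of 3.49, 3.84 and 3.16 in replicates 1, 2 and 3 (mean 3.50 ± 0.34, SD, n = 3), all below the median of their lists at percentiles 13.9, 49.5 and 18.4. The 3 summits fell between the genes within 66 bp of each other on chromosome 1, at 9936229, 9936262 and 9936196. The first and second of these were nearest to LCR31, and that of replicate 3 was nearest to DYL1, at 756 bp against 805 bp to LCR31. Replicate 2 held a second peak on the other side of LCR31, with a fold enrichment of 3.06.

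LCR5 (AT2G28355) lies beside ARF10 (AT2G28350), an auxin response factor gene. Peaks between the genes had fold enrichments of 4.79, 4.76 and 3.34 in replicates 1, 2 and 3, and their summits, at 12117989, 12117975 and 12117930 on chromosome 2, were all nearer to ARF10. The edges of these peaks lay 931, 979 and 974 bp from LCR5, just inside the 1000 bp limit. Replicate 3 alone had a peak at the other end of LCR5, with a fold enrichment of 3.89 and a summit 279 bp from the gene.

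At the remaining LCR genes with peaks in all replicates, every summit was nearer to a neighbour. LCR39 (AT3G23167) had the strongest such peaks, with fold enrichments of 5.40, 5.30 and 4.08 in replicates 1, 2 and 3 (mean 4.93 ± 0.74, SD, n = 3), at percentiles 81.8, 91.9 and 75.1. The summits lay inside AT3G23170, which carries no symbol, and 1549 to 2202 bp from LCR39. Only the edges of the peaks, 805, 877 and 839 bp from LCR39, entered its window.

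LCR3 (AT5G47175) had fold enrichments of 4.17, 5.26 and 3.05 in replicates 1, 2 and 3 (mean 4.16 ± 1.11, SD, n = 3). Its rank differed widely between lists, at percentiles 41.1, 91.4 and 9.20. The summits were 2, 135 and 78 bp from the neighbour AT5G47170 and 920, 787 and 844 bp from LCR3.

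LCR23 (AT4G29273), at the edge of a cluster of LCR genes, had fold enrichments of 4.04, 4.09 and 3.69 in replicates 1, 2 and 3 (mean 3.94 ± 0.22, SD, n = 3). The summits were 75, 170 and 47 bp from the neighbour AT4G29270 and 468, 373 and 496 bp from LCR23. Here the peaks reached LCR23 itself in replicates 1 and 3, and ended 68 bp from it in replicate 2. The map of peaks around these 6 genes shows the summits relative to each gene.

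**Figure D2:**
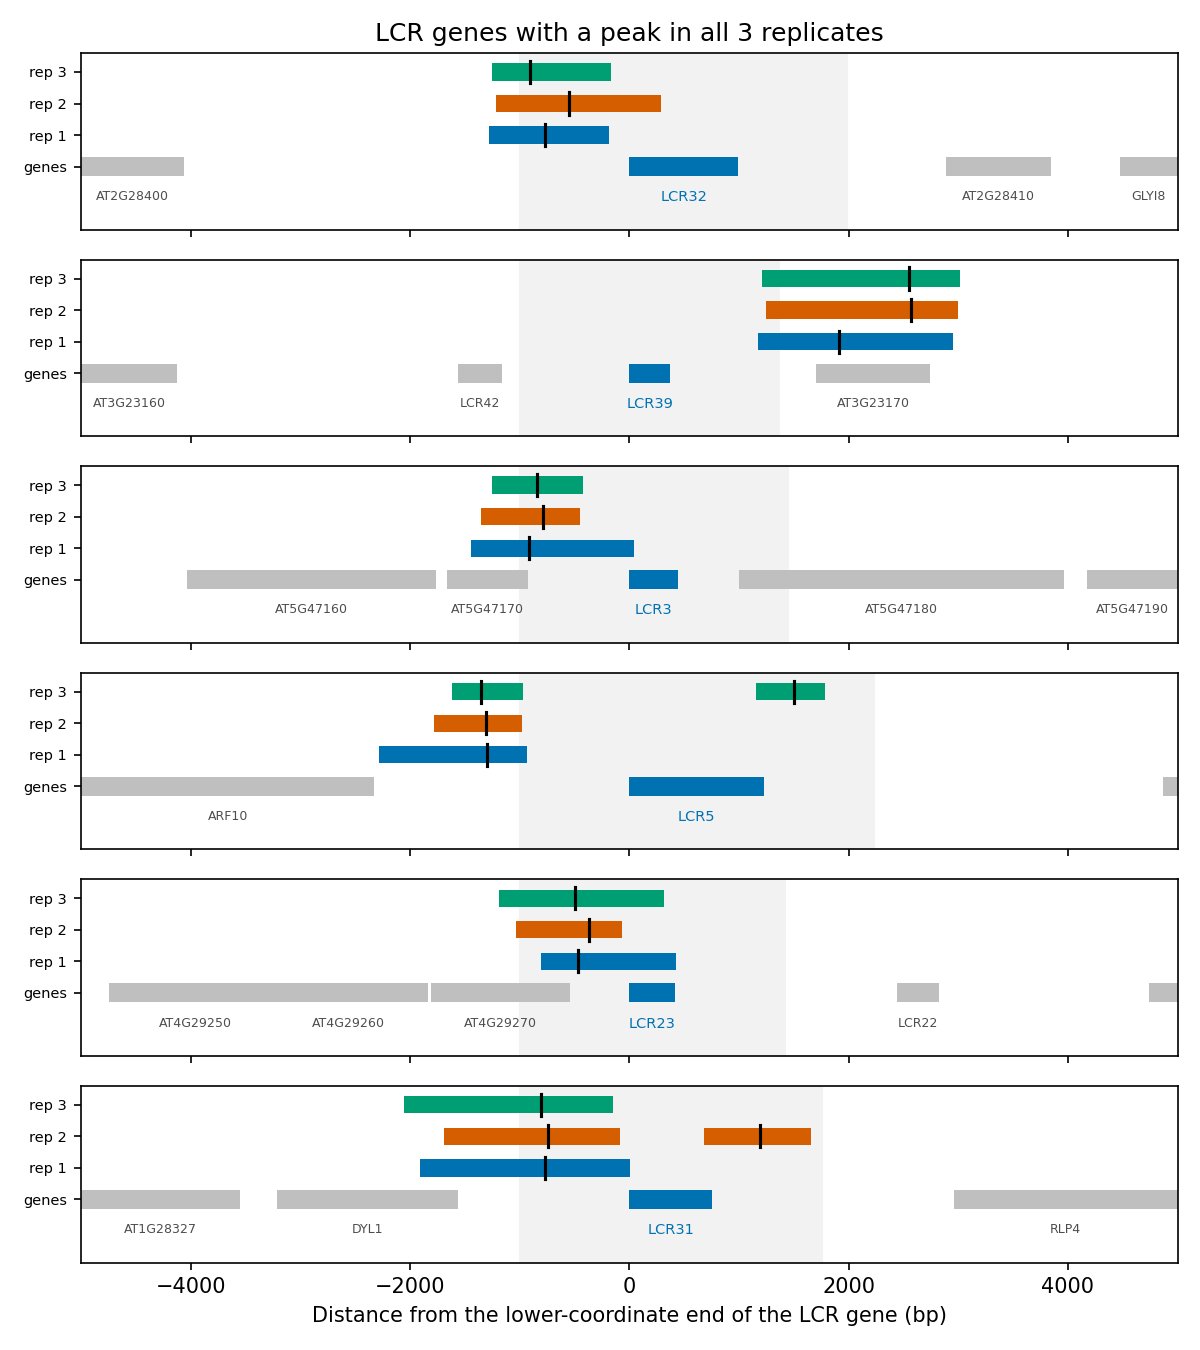
Peaks (coloured bars, 1 row per replicate) and summits (black ticks) around the 6 LCR genes with a peak in all 3 replicates; the x axis gives the distance in bp from the lower-coordinate end of the LCR gene (blue), other protein-coding genes are grey, the window is shaded, and only peaks that touch the window are drawn. At LCR32 the summits are 550 to 908 bp outside the gene, while at LCR39 they lie inside the neighbour AT3G23170.

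LCR genes with peaks in 2 replicates included the defensin genes LCR69 and LCR67. LCR69 (AT2G02100), also named PDF2.2, had fold enrichments of 5.41 in replicate 1 and 3.37 in replicate 2, and no peak in its window in replicate 3. The summit of replicate 1 lay inside LCR69, and that of replicate 2 was 458 bp outside it. LCR67 (AT1G75830), also named PDF1.1, had 3.36 in replicate 1 and 3.12 in replicate 3. Those summits lay at opposite ends of the gene, 427 and 1166 bp from it, so the replicates did not mark the same place.

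The gene table gives a plant defensin synonym to 5 LCR genes. The other members of this group, LCR66 (PDF2.4), LCR68 (PDF2.3) and LCR72 (PDF2.6), had no peak in any list. A peak in at least 1 replicate was thus found for 2 of the 5 (40.0%, interval 11.8 to 76.9%), against 48.1% of all protein-coding genes. None of the 5 had peaks in all 3 replicates (0%, upper Wilson bound 43.4%), against 18.8%.

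LCR19 (AT4G30074) had fold enrichments of 4.14 in replicate 1 and 4.62 in replicate 3, with summits 1142 and 690 bp from the gene that were nearest to it. The value of replicate 3 was the highest there for any LCR gene, at percentile 90.0 of the list. LCR80 (AT5G38330) had a summit inside the gene in replicate 1, with a fold enrichment of 4.78. Other peaks beside LCR80, with 3.85 in replicate 1 and 3.06 in replicate 2, had their summits within 62 bp of the neighbour AT5G38320. In replicate 3 the nearest peak was 58079 bp from LCR80.

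LCR61 (AT4G30064) was reached in replicate 1 by a peak of 4060 bp, with a fold enrichment of 5.08, whose summit was nearer to AT4G30060. In replicate 2 a separate peak with 3.09 had its summit inside LCR61. LCR1 (AT5G48543) had a summit inside the gene in replicate 2, with a fold enrichment of 3.00, close to the lowest value of the lists. In replicate 3 its window was reached by a peak of 3.91 with a summit inside HINT3 (AT5G48545), a gene of a histidine triad protein. LCR36 (AT4G09153) had 3.91 in replicate 1 and 3.83 in replicate 3, both with summits inside AT4G09150.

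The 8 genes with a peak in a single replicate had mostly low fold enrichments. Of these, LCR42 had 4.72 and LCR14 had 3.19, both in replicate 1, and LCR63 had 3.22 in replicate 2, and all 3 were nearest to their summit. LCR45 had 4.22 in replicate 2, with a summit 46 bp from UBP3, a ubiquitin-specific protease gene. LCR10, in replicate 2, had 3.23 with a summit inside MBR1, a RING-type ubiquitin ligase gene. LCR76 (3.49, replicate 2), LCR59 (3.22, replicate 2, the peak of LCR63) and LCR53 (3.05, replicate 3) were likewise nearer-gene cases.

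A summit lay inside the body of 5 LCR genes, each in 1 replicate only. These were LCR69 and LCR80 in replicate 1 and LCR61, LCR63 and LCR1 in replicate 2. No such count was taken for other genes. A peak of any extent reached the gene body in at least 1 replicate in 15.0% of LCR genes. It was 39.1% of all protein-coding genes and 27.2% of those within the length range of the LCR genes. No LCR gene body was reached in all 3 replicates (0 of 80, upper Wilson bound 4.58%), against 13.4% of all protein-coding genes and 8.63% of those within the length range of the LCR genes.

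The strength of the peaks in LCR windows varied within the lists. Their median fold enrichment was 4.17, 3.49 and 3.76 in replicates 1, 2 and 3, against 4.38, 3.85 and 3.58 for all peaks of those lists. They were thus below the list median in replicates 1 and 2 and above it in replicate 3. The highest value was 5.55, at LCR32, and 6 of the 42 peaks reached 5. As percentiles within their own lists, 19 of the 42 peaks stood above 50 and 9 above 75.

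LCR genes are short, and a short gene has a short window. Their length ran from 274 to 1558 bp with a median of 584.5 bp, against a median of 2078 bp for all protein-coding genes. Among the 8438 protein-coding genes of that length range, which include the LCR genes, 37.8% had a peak in at least 1 replicate and 13.5% in all 3. The shares of LCR genes were 26.2 and 7.5%. For the nearest gene, 12 of 80 LCR genes (15.0%, interval 8.79 to 24.4%) stood beside 21.1% in that range.

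Split by length, 3 of 29 LCR genes up to 500 bp (10.3%) had peaks in all replicates, against 10.4% of all protein-coding genes of that length. Between 501 and 1000 bp it was 2 of 40 LCR genes (5.00%), against 11.1%. Above 1000 bp, up to the longest LCR gene, it was 1 of 11 (9.09%), against 16.3%. In the shortest class the shares were nearly equal, and in the other classes that of LCR genes was lower. With a peak in at least 1 replicate, the shares of LCR genes were 24.1, 25.0 and 36.4% from the shortest class to the longest, against 26.4, 34.2 and 43.2%.

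**Figure D3:**
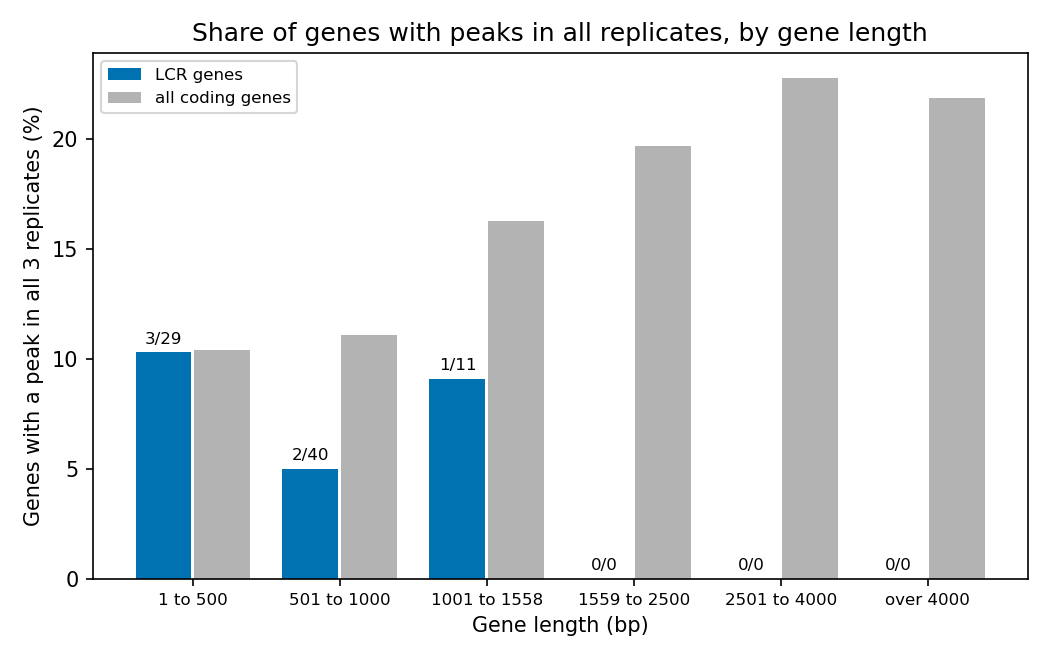
Percent of genes with a peak in all 3 replicates (y axis) by gene length (x axis, bp) for LCR genes (blue, with counts above the bars) and all protein-coding genes (grey). The shares are 10.3 and 10.4% in the shortest class, and the grey bars reach 22.8% in the class up to 4000 bp, where there are no LCR genes.

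The share of window bases inside peaks takes window length into account. Peaks covered 6.22, 5.61 and 3.06% of the bases of LCR windows in replicates 1, 2 and 3 (mean 4.96% ± 1.68, SD, n = 3). In protein-coding genes of the same length range they covered 12.9, 11.0 and 7.83% (mean 10.6% ± 2.55, SD, n = 3), and in all protein-coding genes 12.5, 10.9 and 7.95%. Within each replicate the LCR value was the lowest of these, and the values for LCR-like length and for all genes were close. All 3 sets had the least coverage in replicate 3, which also had the fewest reads in peaks.

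The genes next to the LCR genes were examined to compare places in the genome. There were 118 protein-coding genes next to an LCR gene, or to a run of adjacent LCR genes, on either side. Of LCR genes 26.2% had a peak in at least 1 replicate, against 35.6% of these neighbours, and 7.5% had peaks in all 3, against 13.6%. Among the 44 neighbours within the LCR length range the shares were 25.0 and 11.4% (intervals 14.6 to 39.4% and 4.95 to 24.0%). The coverage of their windows was 8.30, 7.94 and 6.67% in replicates 1, 2 and 3, higher than in LCR windows in each. Distance went the other way. The median from gene body to nearest peak was 12152.5, 11107 and 7841.5 bp for these 44 neighbours. For LCR genes it was shorter in each replicate, at 6820, 5721 and 6791 bp.

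The number of protein-coding genes within 50000 bp was a median of 27 for LCR genes and 27 for all protein-coding genes. Of the LCR genes with at most 10 such neighbours, 0 of 4 had a peak in at least 1 replicate, against 13.7% of all protein-coding genes at that density, and with 11 to 15 neighbours 0 of 3, against 21.5%. At 16 to 20 neighbours 4 of 11 LCR genes (36.4%) had one, against 38.0%, and there peaks in all replicates were found for 2 of 11 LCR genes (18.2%), against 13.9%. The share with a peak in at least 1 replicate was 5 of 14 LCR genes (35.7%), against 47.6%, at 21 to 25 neighbours and 8 of 28 (28.6%), against 51.4%, at 26 to 30. It was 4 of 20 (20.0%), against 53.4%, at 31 to 35 neighbours. Peaks in all replicates were found for 1 of 14 LCR genes (7.14%), against 17.8%, at 21 to 25 neighbours. At 26 to 30 they were found for 1 of 28 (3.57%), against 20.1%, and at 31 to 35 for 2 of 20, against 22.5%. In the 2 sparsest classes it was 0 of 4, against 3.05%, and 0 of 3, against 6.12%. The LCR share for all replicates was thus the higher only at 16 to 20 neighbours. Of the 30 LCR windows that held no other protein-coding gene, 11 (36.7%) had a peak. Of the 50 windows that did, 10 (20.0%) had one. The same split was not made for all protein-coding genes, so these shares cannot be called particular to LCR genes.

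**Figure D4:**
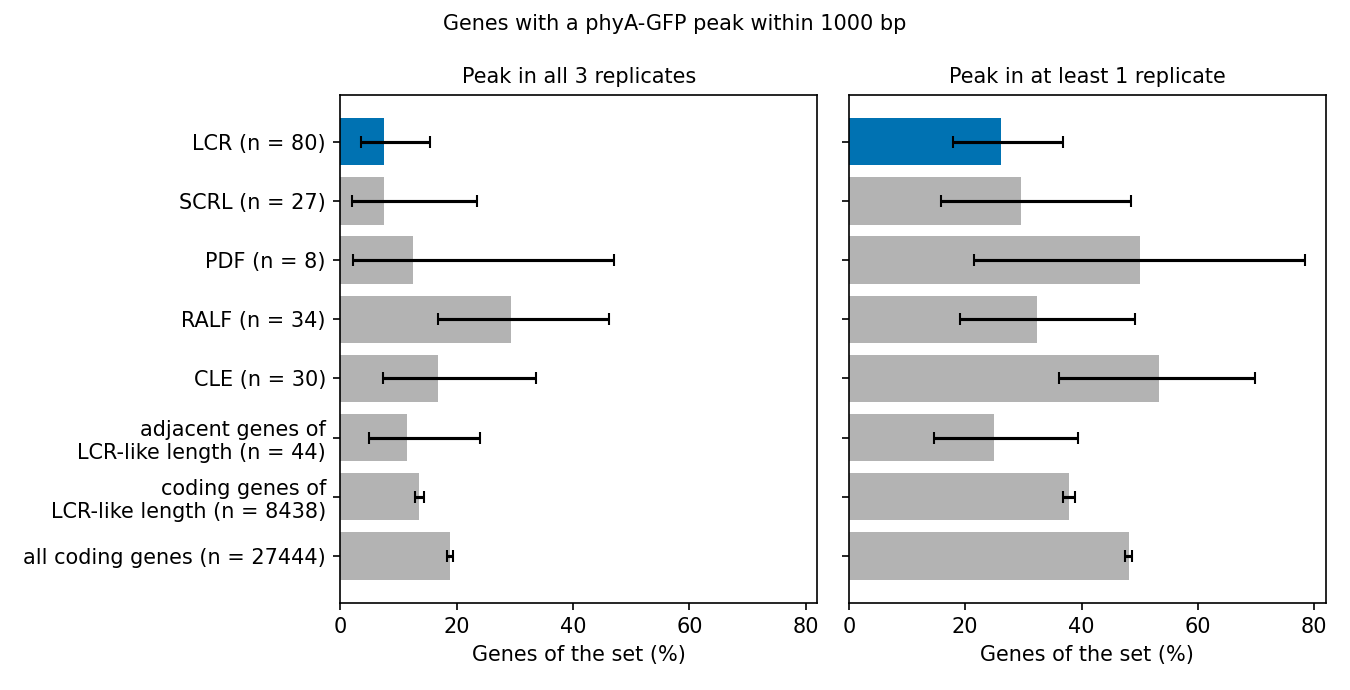
Percent of genes (x axis) with a peak within 1000 bp in all 3 replicates (left) or in at least 1 replicate (right) for LCR genes (blue), other small peptide families and comparison sets (grey); error bars are 95% Wilson intervals. LCR genes stand at 7.5 and 26.2%, against 18.8 and 48.1% for all protein-coding genes.

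The distance from gene body to nearest peak does not depend on a window. Its median was 6820, 5721 and 6791 bp for LCR genes in replicates 1, 2 and 3 (mean 6440 ± 626 bp, SD, n = 3), against 3186, 3025 and 4635 bp for all protein-coding genes (mean 3620 ± 887 bp). Against genes of LCR-like length, LCR genes had the lower share in each replicate at the distances examined up to 5000 bp. Within 1000 bp of the body, 17.5, 18.8 and 13.8% of LCR genes had a peak, against 27.8, 27.2 and 21.0% of genes of LCR-like length. Within 5000 bp it was 40.0, 46.2 and 35.0% of LCR genes, against 51.8, 52.7 and 44.7%. Within 10000 bp it was 70.0, 71.2 and 70.0% of LCR genes, against 69.8, 70.3 and 63.7%.

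**Figure D5:**
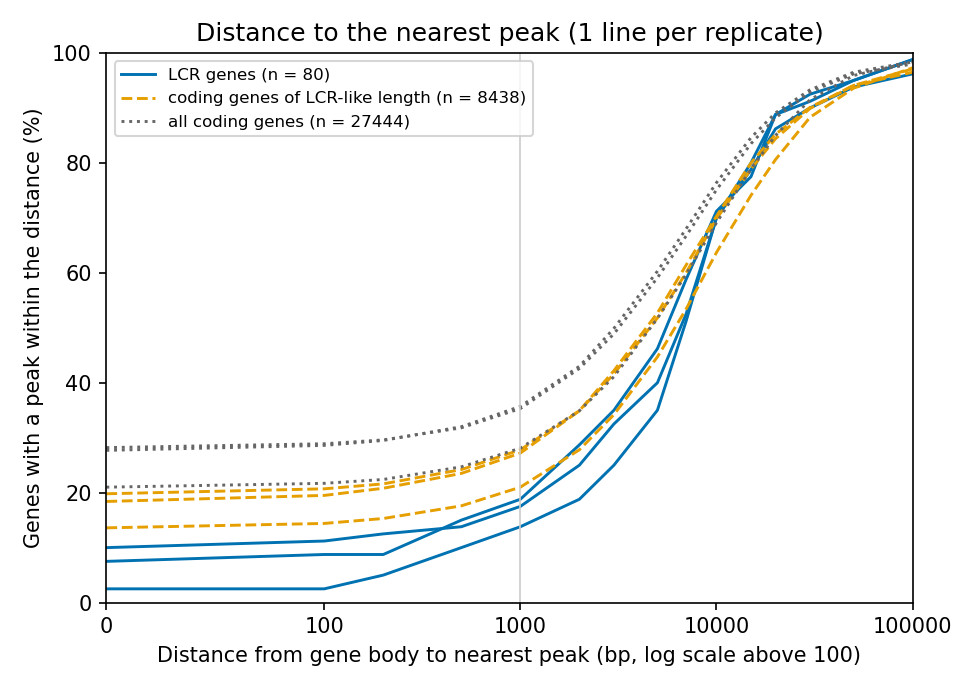
Percent of genes (y axis) with a peak within a given distance of the gene body (x axis, bp, log scale above 100) for LCR genes, protein-coding genes of LCR-like length and all protein-coding genes, with 1 line per replicate; the grey line marks 1000 bp. LCR genes are lowest up to 5000 bp and reach those of genes of LCR-like length at 10000 bp, where LCR genes stand at 70.0 to 71.2%.

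The members next to the 1000 bp limit show how the count depends on it. Just inside, the closest peak edge was 805 bp from LCR39, 800 bp from LCR36 and 717 bp from LCR59. Just outside, it was 1162 bp from LCR49, 1194 bp from LCR58 and 1262 bp from LCR60, in replicate 2 in each case. In the other replicates the nearest peak of LCR49 was 13308 and 16370 bp away, and that of LCR60 was 8588 and 13452 bp away. LCR58, separated from LCR80 by AT5G38320, had peaks at 1303 and 1194 bp in replicates 1 and 2 but at 60529 bp in replicate 3.

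The 59 genes without a peak in the window had their nearest peak of any list at 1162 to 153454 bp, with a median of 5993 bp, and 12 of them were more than 10000 bp from one. The farthest was LCR47 (AT3G42473) on chromosome 3, with nearest peaks at 284564, 198338 and 153454 bp in replicates 1, 2 and 3 and 0 other protein-coding genes within 50000 bp. LCR13 (AT4G09795) followed with 47071, 47012 and 47145 bp, and LCR30 (AT3G43505) with 44616, 44749 and 37544 bp. At LCR13 the replicates gave nearly the same distance.

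LCR genes were grouped into clusters by distance alone. Other protein-coding genes can lie between the members, as AT3G61180 does between LCR53 and LCR54. With a gap of at most 10000 bp, 38 of the 80 genes fell into 14 clusters and 42 were single. A peak in at least 1 replicate was found for 10 of the 38 clustered genes (26.3%) and for 11 of the 42 single genes (26.2%), against 48.1% of all protein-coding genes. Peaks in all replicates were found for 2 (5.26%) and 4 (9.52%), against 18.8% of all protein-coding genes. Genes of a cluster share surroundings and are not independent, and 1 of the 42 peaks lay in the windows of more than 1 LCR gene.

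The largest cluster, on chromosome 4, held LCR23, LCR22, LCR21, LCR24, LCR26, LCR27 and LCR25. Of these 7 genes only LCR23, at the edge, had a peak. The nearest peak of the other 6 was 2014 to 10391 bp away over the 3 replicates. A second cluster on chromosome 4 held LCR61, LCR63, LCR59 and LCR19. Each of its 4 genes had a peak in the window, that of LCR59 being the peak of LCR63. No gene of this cluster had peaks in all replicates. Replicate 2 held the peaks with summits in LCR61 and LCR63, and replicates 1 and 3 held those beyond LCR19. Replicate 1 also held the peak of 5.08 that reached LCR61, with a summit nearer to AT4G30060. In the cluster of LCR8, LCR52, LCR53 and LCR54 on chromosome 3 only LCR53 had a peak, in replicate 3. LCR68, LCR72 and LCR73 on chromosome 2 had none, with nearest peaks at 8181 to 14630 bp.

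The family was spread unevenly over the chromosomes. Chromosomes 1 to 5 held 6, 22, 17, 23 and 12 LCR genes, which were 7.5, 27.5, 21.2, 28.8 and 15.0% of the family, against 26.1, 15.7, 19.9, 15.2 and 23.1% of all protein-coding genes. A peak in at least 1 replicate was found for 2, 6, 3, 7 and 3 of them, and peaks in all replicates for 1, 2, 1, 1 and 1. LCR genes with peaks were thus found on all 5 chromosomes. Over the 5 chromosomes together, 48.1 and 18.8% of all protein-coding genes had such peaks. Their shares were not taken by chromosome.

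Other families of small secreted peptides were examined by the same rule. The SCRL genes, relatives of the self-incompatibility gene SCR, were the closest in size, with a median length of 582 bp. Peaks in all replicates were found for 6 of 80 LCR genes (7.5%), against 2 of 27 SCRL genes (7.41%, interval 2.06 to 23.4%). Both SCRL genes, SCRL5 and SCRL7, had the same fold enrichments of 4.28, 3.51 and 3.01 in replicates 1, 2 and 3. SCRL5 was nearest to a summit in each replicate and SCRL7 in none, so they may have been counted by the same peaks. Peaks in at least 1 replicate were found for 26.2% of LCR genes, against 29.6% of SCRL genes (8 of 27). Among 8 PDF genes, which encode further plant defensins, 4 had a peak in at least 1 replicate (interval 21.5 to 78.5%). The share was 26.2% for LCR genes and 48.1% for all protein-coding genes. Peaks in all replicates were found for 1 of the 8 PDF genes (interval 2.24 to 47.1%), against 18.8% of all protein-coding genes. This was PDF2.5, with fold enrichments of 5.26, 5.24 and 4.69 in replicates 1, 2 and 3.

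RALF genes encode growth-regulating peptides that are recognised by receptor kinases at the cell surface, and they are as short as LCR genes, with a median of 575 bp. Peaks in all 3 replicates were found for 7.5% of LCR genes, against 29.4% of RALF genes (10 of 34, interval 16.8 to 46.2%). With a peak in at least 1 replicate it was 26.2% of LCR genes, against 32.4% of RALF genes (11 of 34, interval 19.1 to 49.2%). The share nearest to a summit in at least 1 replicate was 15.0% of LCR genes, against 14.7% of RALF genes, and the median distance to a peak was 6440 ± 626 bp for LCR genes, against 7670 ± 1570 bp for RALF genes (SD, n = 3 each). At 3 of the 10 genes with peaks in all replicates, RALF23, RALFL33 and RALFL34, the RALF gene was nearest to a summit in each replicate. RALFL34 had fold enrichments of 7.40, 4.54 and 4.82. Coverage of the windows was 6.22, 5.61 and 3.06% for LCR genes in replicates 1, 2 and 3, against 22.9, 15.1 and 16.9% for RALF genes. The lowest value for RALF genes was above the highest for LCR genes.

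CLE genes encode short signalling peptides of meristems and vasculature. Among LCR genes 26.2% had a peak in at least 1 replicate, against 53.3% of CLE genes (16 of 30), and 7.5% had peaks in all 3, against 16.7% (5 of 30, interval 7.34 to 33.6%). Lipid transfer protein genes (LTP, 6 genes, 0 with peaks in all replicates) and the stomatal patterning genes of the EPF family (2 genes, of which EPF2 had peaks in all replicates) were too few to describe as families.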

How the data were processed

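ChIP-seq peak lists of 3 phyA-GFP samples were used, 1 list per sample and not pooled. The submitters' processing notes name Bowtie and the TAIR10 build. Which peak caller and filters were applied, and whether the input entered, is not given in the sources used here. The lists have 9 unnamed columns in the order of the MACS 1.4 table. The deposited read count per peak is a whole number, not normalized. The authors' fold enrichment is on a linear scale (a ratio), and the deposited score was not used for any result. The last deposited column was taken for a percent false discovery rate. These readings rest on the values and the column order. Wilson intervals (95%) reflect only counting error. They treat genes as independent, which genes of a cluster are not, and they do not allow for how the LCR family was chosen.

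Genes came from the RefSeq table of TAIR10.1, whose coordinates were checked on the peaks. Protein-coding genes held 35.1% of the summits of replicate 1, and 63.7% once summits were moved by 2000 bp. The summit was the start plus the fifth column. Genes were found by symbol. Sequences were not used here, so the planned motif and protein descriptions were left out. Functions were tested on planted peaks. Python 3.11.15 with pandas 2.3.3, numpy 2.4.6 and scipy 1.17.1 was used.

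The members, peptide families and comparison sets were chosen with earlier results of these data known. Named genes were those with peaks in all replicates, those nearest to a summit, those beside the 1000 bp limit and the farthest 3. The remaining genes with peaks, the members of the clusters and of the defensin group, and the named genes of other families were added after their values were seen. Alternatives were flanks of 500 and 2000 bp, stricter peaks, other overlap rules, merged regions, other comparison sets and leaving out each replicate.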

Additional observations from a re-analysis of the deposited data

How the results depend on the processing

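The 6, 21 and 12 LCR genes with a peak in all 3 replicates, with a peak in at least 1 and nearest to a summit were 1, 10 and 4 at a false discovery rate of at most 1%, against 4.78, 24.4 and 14.9% of all protein-coding genes. With peaks at or above the list median of fold enrichment they were 2, 13 and 6, against 7.09, 30.7 and 19.2%. The gene left at the stricter rate was LCR39, whose summits lie in its neighbour. With an overlap of at least 50%, 3 LCR genes had peaks in all replicates, against 14.2% of all genes. With regions merged over the replicates there were 7, against 20.3%, and flanks of 500 and 2000 bp gave 4 and 9. Requiring peaks in both remaining replicates gave 7 to 9 LCR genes when each replicate was left out in turn. Leaving out replicate 2 or 3 gave 9, which is 1.5 times the count with all replicates. With 1 replicate left out, LCR genes with at least 1 peak numbered 16 to 20, against 42.0 to 44.2% of all protein-coding genes. Those nearest to a summit numbered 9 to 11, against 26.8 to 28.3%. The share of all protein-coding genes with peaks in all replicates moved from 18.8% to 16.2 and 24.3% with flanks of 500 and 2000 bp, to 14.3% with the summit required in the window, to 13.5% in the LCR length range and to 21.4 to 26.8% with 1 replicate left out. The LCR share was below the share of all genes in each of these settings, which draw on the lists by which the family was chosen. Among genes whose locus number does not end in 0, a set added after seeing the data, it was 11.5%. The median distance of LCR genes to a peak was 22000 bp at the stricter false discovery rate and 11000 bp with peaks at or above the median, against 17700 and 9360 bp for all genes. Without 1 replicate it was 6260 to 6810 bp. Stricter peaks and shorter flanks leave fewer peaks and bases to count, and the cause of the other shifts was not tested. No paired analysis was possible because only 1 group of samples was analysed. Depth is unknown, so absence of a peak means that none was listed, not that phyA was absent.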

Other observations

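LCR genes differ from most genes in how their locus numbers were assigned, a feature chosen after the data were seen. The number does not end in 0 in 68 of 80 LCR genes (85.0%), against 14.2% of all protein-coding genes. Among all protein-coding genes of the LCR length range, those with such numbers had peaks in all 3 replicates in 9.25% of cases and in at least 1 replicate in 30.4%, against 15.3 and 40.8% of those with numbers ending in 0. The LCR values, 7.5 and 26.2%, lie near the first pair. Coverage of windows was lower for LCR genes, at 6.22, 5.61 and 3.06% in replicates 1, 2 and 3, against 9.83, 8.14 and 5.34% for the genes with such numbers. The share nearest to a summit in at least 1 replicate was higher for LCR genes, at 15.0% against 13.6%. What the ending of the locus number stands for was not tested.

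LCR71 is a transcribed pseudogene in the gene table and was not among the 80 genes. Its window held 0 peaks in each replicate.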
